A study of Schizosaccharomyces pombe with 4 samples.

Results

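The data describe the wild type (WT) transcriptome of the fission yeast Schizosaccharomyces pombe in log phase, the state in which a culture divides steadily. All samples labelled WT were taken, which gave 2 of the 4 libraries of the series, and all genes that their tables list, which gave 5129 of the 5133 genes listed for the series. Both WT libraries carry the strain name KOR3006 and come from total RNA of cells cultured at 30 °C in the rich medium YEA. The genotype beyond the WT label and the number of cultures behind the libraries are not given in the sources used here. An SD over the libraries may hold technical variation only. The other libraries of the series, labelled Y41F, served here only to count gene identifiers. With 1 group and 2 libraries there is no test, and levels are given as values with their spread.

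A fission yeast cell in rich medium spends much of its messenger RNA on making ribosomes and on fermenting glucose to ethanol. Ribosomal proteins are made in large amounts and assemble with ribosomal RNA, and glycolytic enzymes turn glucose into pyruvate, which pyruvate decarboxylase and alcohol dehydrogenase convert to ethanol. Genes for meiosis, spore formation and mating are turned on mainly when nitrogen runs out, and many genes near chromosome ends lie in silent chromatin.

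Levels are FPKM, fragments per kilobase of gene length scaled to the size of the library, as the authors deposited them, so genes of different length can be set side by side. A level is an average over the culture, and a transcript present in few cells cannot be told apart from a transcript present at few copies in every cell. The total expected count was 22260430 in library 1 and 20845572 in library 2, and the median gene had 1518 expected counts in library 1. At a coding length of 1000 bases, 1 count was worth 0.0448 FPKM in library 1 and 0.0479 in library 2. The libraries were not copies of each other, since the chi-square per degree of freedom of their counts was 43.6 over 5033 genes, where sampling noise alone gives about 1. The libraries stood apart from each other in a set of genes described further on, and 2 libraries cannot show which of them was unusual. Among the 4922 genes with a mean of at least 5 FPKM, 69 were at least 2-fold higher in library 2 (1.4%) and 1 was at least 2-fold lower (0.0203%). Values of both libraries are therefore given beside the results.

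Most genes were listed at 10 FPKM or more. The median level was 54.8 FPKM in library 1 and 58.6 in library 2 (56.7 ± 2.70, SD, n = 2). The genes nearest to the median of the mean levels were pck2, for a protein kinase C, at 50.0 and 63.3 FPKM in libraries 1 and 2, and yox1, for a corepressor of the cell cycle factor MBF, at 56.4 and 56.9 FPKM. Beside them stood liz1, for a pantothenate transporter, at 60 and 53.3 FPKM, dre4, for a splicing-associated factor, at 56.3 and 57.1, and psy2, for a subunit of protein phosphatase PP4, at 54.1 and 59.2. By mean level, 3263 genes lay from 10 to 100 FPKM and 1322 from 100 to 1000. A further 291 lay from 1 to 10 FPKM, 69 lay under 1 and 184 reached 1000 or more. The 95th percentile was 103 times the 5th in library 1 and 89.3 times in library 2.

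**Figure D1:**
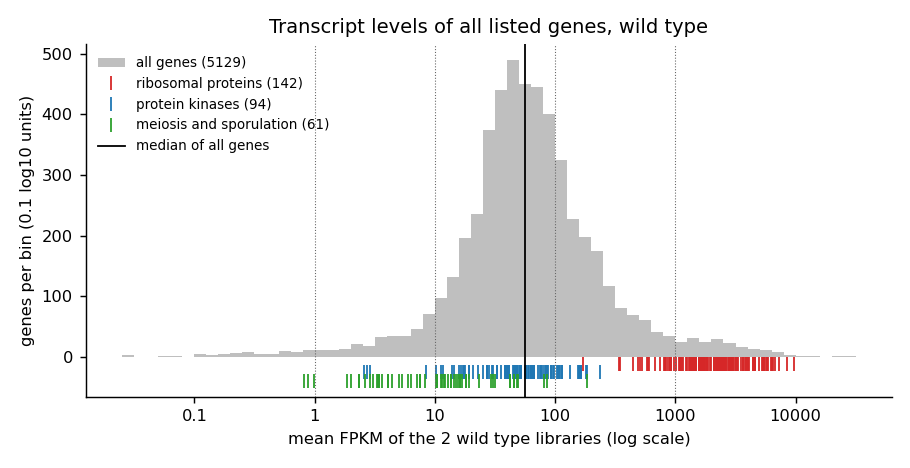
Histogram of the mean FPKM of the 2 wild type libraries over 5129 genes (horizontal axis, log scale; vertical axis, genes per bin of 0.1 log10 units). Dotted lines mark 1, 10, 100 and 1000 FPKM, the black line marks the median of 56.7 FPKM, and ticks under the bars mark members of 3 gene lists, with ribosomal protein genes at the right and most meiosis and sporulation genes left of the median.

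A few genes held much of the summed FPKM. The 184 genes at 1000 FPKM or more held 53.9% of the summed mean FPKM, while the 3263 genes from 10 to 100 FPKM held 14.7%. The top 10 genes held 11.6% of the summed FPKM in library 1 and 11.2% in library 2, and the top 100 held 43.3% and 40.98%. It took 141 genes to reach 50% in library 1 and 159 in library 2, and 2014 and 2180 genes to reach 90%. The share of the top genes was thus somewhat higher in library 1.

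Glycolytic enzymes led the ranking. The highest level was that of tdh1, for glyceraldehyde-3-phosphate dehydrogenase, at 26617 FPKM in library 1 and 25347 in library 2, or 2.50% of the summed FPKM. Next came fba1, for fructose-bisphosphate aldolase, at 21781 and 20492 FPKM, then eno101, for enolase, at 13907 and 14634, and gpm1, for phosphoglycerate mutase, at 9794 and 10265. Among these 4 genes the libraries did not overlap between neighbours in this order, but rpl29, next in rank, had a higher level than gpm1 in library 1. Of the enzymes that complete fermentation, pdc101, for pyruvate decarboxylase, had 8003 and 7178 FPKM and adh1, for alcohol dehydrogenase, 6871 and 7067. The values of both overlap with those of rps21, a neighbour in the ranking, so their order is not fixed by these data.

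Of the 25 highest genes, 15 encode ribosomal proteins, 4 glycolytic enzymes, 2 fermentation enzymes and 2 the elongation factor EF-1 alpha. The remaining ones were oga1, annotated as protein stm1, at 6806 and 5822 FPKM, and cpc2, for the ribosome-bound protein RACK1, at 5602 and 5060. The highest ribosomal protein gene was rpl29, for a small protein of the large subunit, at 10552 and 8733 FPKM. It was followed by rps7 at 8805 and 8115 FPKM and rps21 at 7794 and 6751, both for proteins of the small subunit. All of these ribosomal genes were higher in library 1 than in library 2. The libraries shared 24 of their 25 highest genes and 99 of their 100 highest.

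**Figure D2:**
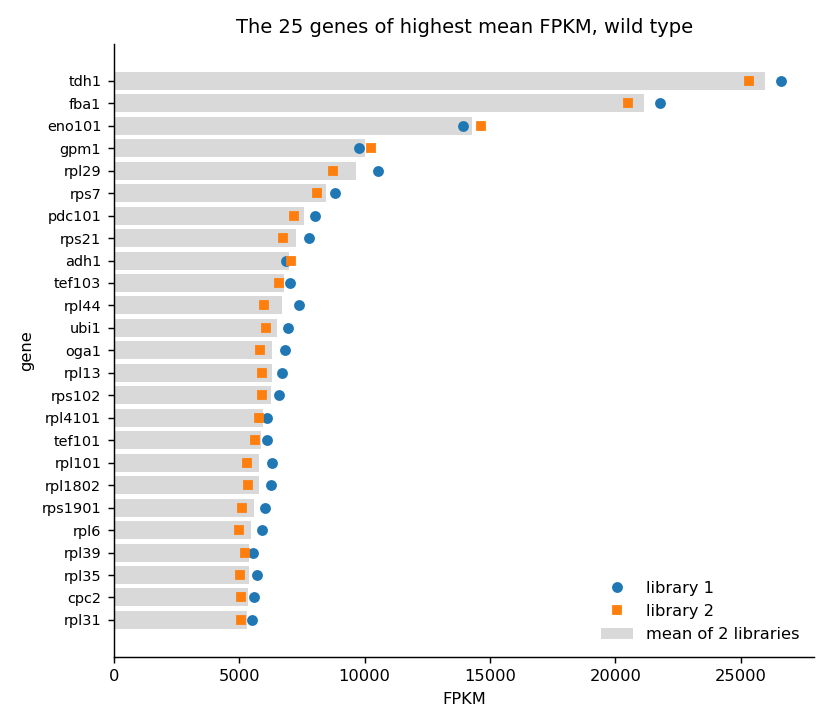
The 25 genes of highest mean level in wild type (vertical axis) with their FPKM (horizontal axis, linear from 0). Bars are the mean of 2 libraries, circles library 1 and squares library 2, and tdh1, fba1, eno101 and gpm1 stand at the top, from 26617 FPKM for tdh1 in library 1 to 9794 for gpm1.

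Genes were also read by function, in 51 lists that hold 1910 of the 5129 genes, with some genes in several lists. Over all genes the median of the mean level was 56.7 FPKM, and each list is given beside it.

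Ribosomal protein genes were expressed at a high level as a body. Their 142 genes had a median of 2170 FPKM in library 1 and 2065 in library 2, and all 142 lay above the median of all genes. They held 34.1% ± 1.56 (SD, n = 2) of the summed FPKM but 16.5% ± 0.971 of the expected counts, as their coding sequences are short and FPKM divides by length. In all, 119 of them reached 1000 FPKM. The 76 genes of the large subunit had a median of 2042 FPKM and the 55 of the small subunit 2231, while the 7 genes of the acidic P proteins, which form the stalk of the large subunit, had 1245.

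Many ribosomal proteins of this yeast are encoded by more than 1 gene, and the copies were seldom equal. There were 53 families with several copies, 48 of them pairs, and the highest copy stood above the lowest by a median of 1.88 times. The ratio was over 2 in 22 families, over 5 in 7 and under 1.5 in 19. In all 53 families both libraries gave the copies the same order. The widest gap was between rpl1602, at 4629 and 4194 FPKM, and rpl1603, at 163 and 178 FPKM, which was also the lowest ribosomal protein gene. In the pair for the small subunit protein S19, rps1901 had 6037 and 5106 FPKM and rps1902 had 460.3 and 435 FPKM, a ratio of 13.1 in library 1 and 11.7 in library 2. The pair rpl101 and rpl102, for protein uL1 of the large subunit, stood 10.9 and 11.1 times apart. At the other end, rpl4301 and rpl4302 were 1.07 and 1.04 times apart. Copies with near-identical sequence share reads that the authors' counting had to divide, so these ratios are uncertain where copies hardly differ. The 31 genes outside such families had a median of 2912 FPKM, against 1810 for a copy within a family and 3975 for the sum of a family.

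Other genes of translation ranged from levels like those of ribosomal protein genes to far lower ones. The 9 elongation factor genes had a median of 2428 FPKM in library 1 and 2220 in library 2. The 3 genes of EF-1 alpha, which brings aminoacyl-tRNA to the ribosome, were tef103 at 7006 and 6578 FPKM, tef101 at 6124 and 5630, and tef102 at 3658 and 3313. Since these 3 coding sequences are of equal length and closely related, the division of reads between them is uncertain. The genes for elongation factor EF-2, which moves the ribosome along, were lower, with eft202 at 1007 and 998 FPKM and eft201 at 686 and 695. Initiation factor genes, 24 in all, had a median of 442 FPKM, from tif225 at 136 to tif1, for the helicase eIF4A, at 2464. The 35 tRNA ligase genes, which charge tRNAs with amino acids, ranged from 26.4 FPKM for mse1 to 679 for krs1, with a median of 139. The lowest levels in this list belong to ligases that serve mitochondria, such as ism1 at 25.4 and 28.7 FPKM.

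Within glycolysis the levels differed widely between steps. After the 4 leading enzymes came tpi1, for triosephosphate isomerase, at 3448 and 3941 FPKM, pgk1, for phosphoglycerate kinase, at 3128 and 3221, and pyk1, for pyruvate kinase, at 2722 and 2738. The early steps lay lower, with pgi1, for glucose-6-phosphate isomerase, at 1668 and 1641 FPKM, hxk2, for a hexokinase, at 900.2 and 918, and pfk1, for phosphofructokinase, at 614 and 640.4. The other hexokinase gene, hxk1, had 215 and 244 FPKM. The list of 13 genes held 8.20% ± 0.163 of the summed FPKM. Its remaining members were the second copies gpd3 and eno102, whose libraries lay far apart, at 241 and 1404 FPKM for gpd3 and at 20.9 and 54.8 for eno102.

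In fermentation, 1 gene per step stood far above its paralogues. Next to pdc101 and adh1, the aldehyde dehydrogenase gene atd1 had 640.0 and 597 FPKM and the alcohol dehydrogenase gene adh4 143 and 149. The other members of the list of 10 lay low. The pyruvate decarboxylase gene pdc201 had 9.77 and 36.9 FPKM, pdc202 14.7 and 17.3, and pdc102 1.90 and 5.54. The alcohol dehydrogenase gene adh8 had 13.6 and 45.7 FPKM, so that it and pdc201 were more than 2-fold higher in library 2. The aldehyde dehydrogenase genes atd2 and atd3 had means of 32.5 and 10.4 FPKM.

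Glucose that is not fermented can enter the pentose phosphate pathway, which makes NADPH and ribose. There, tkt1, for transketolase, had 1439 and 1442 FPKM, tal1, for transaldolase, 1070 and 1085, and gnd1, for 6-phosphogluconate dehydrogenase, 957 and 1073. The gene of its first enzyme, zwf1, had 336 and 358 FPKM. The list of 9 genes also holds fbp1, for the gluconeogenic enzyme fructose-1,6-bisphosphatase, at 13.6 and 82.0 FPKM.

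Genes for mitochondrial respiration that lie in the nucleus were expressed above the median. The 19 genes of the tricarboxylic acid cycle had a median of 273 FPKM, with aco1, for aconitase, at 585 and 600.0 and sdh1, for a succinate dehydrogenase subunit, at 543 and 621. The 34 nuclear genes of the respiratory chain and ATP synthase had a median of 255 FPKM and 33 of them lay above the median of all genes. The ATP synthase subunit gene atp2 led them at 902 and 1042 FPKM, and cyc1, for cytochrome c, had 545 and 580. The 76 genes for proteins of the mitochondrial ribosome were lower, with a median of 93.8 FPKM and a range from 12.1 for mrpl33 to 227 for mrpl25.

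Genes of the mitochondrial genome itself were nearly absent from both tables. The 10 listed identifiers with the mitochondrial prefix had a median of 0.540 FPKM in library 1 and 0.260 in library 2, and together held 0.000794% of the summed FPKM. The highest, SPMIT.10, had 4.34 and 1.47 FPKM, and 7 of the 10 had a mean under 1. Details of how messenger RNA was selected from the total RNA are not given in the sources used here, and the part of that step in these levels was not tested.

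Most genes for chaperones and for the protein-degrading machinery also lay above the median of all genes. The 29 genes for chaperones and folding enzymes had a median of 287 FPKM, and 6 of them reached 1000 FPKM. The ribosome-associated Hsp70 gene sks2 had 4978 and 4633 FPKM, the cytosolic Hsp70 gene ssa2 4606 and 3689, and hsp90 2628 and 2173. The disaggregase gene hsp104 was lowest at 29.2 and 23.2 FPKM. The 14 genes of the proteasome core, a barrel of alpha and beta subunits that degrades tagged proteins, had a median of 209 FPKM, between pts1 at 83.2 and pup3 at 372. Its regulatory particle, which unfolds substrates, had a median of 174 FPKM over 21 genes.

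Subunits of a complex need not have equal messenger levels. The 8 genes of the CCT chaperonin, a ring that folds actin and tubulin, were the most even of the 51 lists, with 1.71 times between the ends, from cct8 at 167 and 172 FPKM to cct1 at 291 and 288 FPKM. The 12 genes of RNA polymerase II, which transcribes messenger RNA, ranged from rpb9 at 49.2 and 54.5 FPKM to rpb5 at 397 and 343. Its largest subunit gene, rpb1, had 170 and 167 FPKM, and rpb2 had 93.6 and 107. The 8 genes of RNA polymerase I, which transcribes ribosomal RNA, had a median of 193 FPKM, against 118 for RNA polymerase II and 50.1 for the 11 of RNA polymerase III, which transcribes tRNAs and 5S RNA. In these lists the shared subunit gene rpc10, at 209 and 191 FPKM, counts for both polymerase II and III, and rpb5, rpb6, rpb8 and rpb10 are counted with polymerase II alone. The genes rpc40, at 252 and 222 FPKM, and rpc19, at 244 and 217, whose products polymerases I and III share, are counted with polymerase I alone.

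Biosynthesis of building blocks was broadly expressed. Of 59 amino acid synthesis genes, 55 lay above the median of all genes, with a list median of 249.6 FPKM. The reductoisomerase gene ilv5, of branched-chain amino acid synthesis, led at 3995 and 3643 FPKM, followed by shm1, for serine hydroxymethyltransferase, at 1735 and 1498. The 20 nucleotide synthesis genes had a median of 204 FPKM, and ergosterol synthesis, 22 genes that make the main membrane sterol, 152. The plasma membrane proton pump gene pma1 had 867 and 756 FPKM, and its paralogue pma2 had 11.4 and 13.6.

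Cytoskeletal genes spanned a wide range. The actin gene act1 had 1570 and 1780 FPKM and rho1, for a GTPase of cell wall growth, 982 and 947. The tropomyosin gene cdc8 had 789 and 822 FPKM, and the formin gene for3 was the lowest of 30 genes for actin and cytokinesis at 15.1 and 17.3. The alpha-tubulin gene nda2 had 369 and 367 FPKM, the beta-tubulin gene nda3 271 and 291, and the further alpha-tubulin gene atb2 130 and 125. The dynein heavy chain gene dhc1 had 3.98 and 4.35 FPKM. Its coding sequence, with 12591 bases, is among the 5 longest.

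Core histone genes lay high, with values that differed between copies of the same histone. The only H2B gene, htb1, had 1504 and 1553 FPKM, and the H2A genes hta2 and hta1 had means of 1054 and 508. The 3 H3 genes hht1, hht2 and hht3 had means of 911, 660.0 and 528 FPKM, and the H4 genes hhf1, hhf3 and hhf2 947, 417 and 153. The variant genes were lower, with pht1, for H2A.Z, at 64.9 and 70.4 FPKM and cnp1, for the centromeric H3 variant CENP-A, at 12.3 and 15.7.

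Nucleolar ribosome biogenesis, the processing of ribosomal RNA, had 47 of 51 genes above the median of all genes and a list median of 124 FPKM, led by nop56 at 576.5 and 538 and fib1, for fibrillarin, at 555 and 543. The 66 splicing genes had a median of 63.3 FPKM, from prp16 at 16.7 to srp2 at 639, and the 31 nuclear pore genes 74.2. The 29 replication fork genes had 55.3, with the sliding clamp gene pcn1 at 409 and 417 FPKM, far from cdc20, for the catalytic subunit of DNA polymerase epsilon, at 10.3 and 11.5. The 23 genes of the replication origin and the MCM helicase had a median of 43.0 FPKM, and the highest, psf3, had 165 and 169 FPKM.

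Lists of regulators had medians at or under the median of all genes, though part of their members lay above it. These were 11 of 37 cell cycle regulators, 43 of 94 protein kinases and 23 of 53 transcription factors. For heterochromatin and RNA interference they were 8 of 50. The 37 cell cycle regulators had a median of 39.7 FPKM. The mitotic cyclin gene cdc13 had 199 and 206 FPKM, the cyclin-dependent kinase gene cdc2 91.1 and 93.6, and the checkpoint kinase genes chk1 and rad3 10.9 and 12.4 FPKM and 11.5 and 13.1 FPKM. Among 94 protein kinases and their subunits the median was 52.1 FPKM and the highest was hal4 at 225 and 244. Among 53 sequence-specific transcription factors the median was 52.2 FPKM, with zip1 at 429 and 387, the stress factors atf1 at 120.3 and 123 and prr1 at 192 and 197, and rsv1 the lowest at 2.80 and 3.14. The 50 genes for heterochromatin and RNA interference had a median of 32.9 FPKM. There, swi6, for the HP1 protein that binds methylated histone H3, had 139 and 150 FPKM, while clr4, for the enzyme that methylates it, had 7.97 and 9.42.

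**Figure D3:**
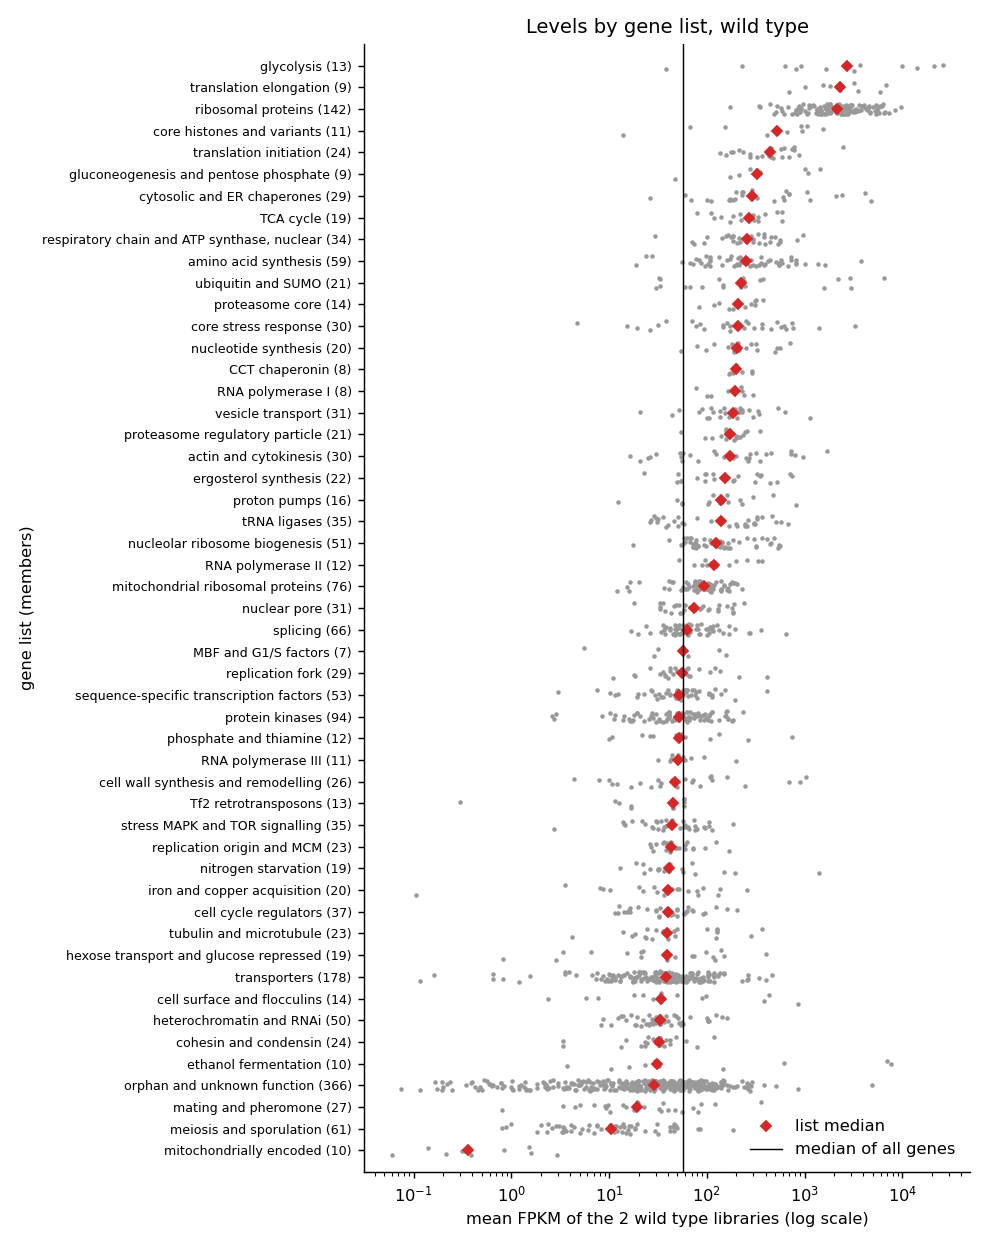
Mean FPKM of the members of 51 gene lists in wild type (horizontal axis, log scale; grey points are genes, scattered vertically for sight, and diamonds are list medians), ordered by median, with the member count in brackets. The black line is the median of all genes at 56.7 FPKM, with glycolysis at 2730, translation elongation at 2324 and ribosomal proteins at 2126 on top and mitochondrially encoded genes at 0.363 at the bottom.

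Genes known for meiosis, spore formation and mating were low in both libraries, with a few exceptions. The 61 meiosis and sporulation genes had a median of 9.86 FPKM in library 1 and 11.3 in library 2, and 58 of them lay under the median of all genes. The meiotic transcription factor gene mei4 had 3.36 and 3.96 FPKM, the meiotic cohesin gene rec8 2.99 and 3.84, and the meiosis inducer gene mei3 0.950 and 0.670. The meikin gene moa1, which acts at meiotic kinetochores, had 0.810 and 0.960. The highest member, spo20, for a phospholipid transfer protein that growing cells also use, had 186 and 181 FPKM.

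Mating genes lay between these and the median, with 19.5 FPKM over 27 genes. Their master regulator gene ste11 had 18.0 and 20.9 FPKM. The pheromone receptor genes map3 and mam2 had 71.2 and 73.3 FPKM and 45.3 and 49.3 FPKM, while the pheromone genes mfm1, mfm2 and mfm3 had means of 3.37, 4.44 and 9.65. The protease gene sxa1 led at 334 and 385 FPKM. The mating-type gene mat1-Mc had 0.670 of an expected count in library 1 and 0 in library 2, and its copies mat3-Mc and SPMTR.04 had the same values.

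Genes for nutrient uptake differed widely in level, and none of the transporter list reached 1000 FPKM. Among the 8 hexose transporter genes, ght8 had 427 and 370 FPKM, ght5 124 and 156, ght2 66.4 and 82.7, ght6 37.8 and 40.0, and ght4 20.96 and 21.5, while ght1, ght3 and ght7 lay under 4 FPKM in both libraries. Of 178 transporter genes, whose median was 38.3 FPKM, the highest was SPBC1703.13c at 508 and 418. In the list for iron and copper, the copper transporter gene ctr4 had 259 and 253 FPKM, whereas the haem-uptake gene shu1 had 1 count in library 1 and 2 in library 2. In the list for phosphate and thiamine, the acid phosphatase gene pho1 had 525 and 953 FPKM, and the thiamine-repressed gene nmt1 10.1 and 11.4.

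The retrotransposon Tf2 is present in several near-identical copies, whose reads cannot be assigned to 1 copy. The 13 listed copies had a median of 44.9 FPKM. Tf2-3, Tf2-5, Tf2-6 and Tf2-12 were given the same 61.1 and 55.8 FPKM, and Tf2-1, Tf2-2, Tf2-4 and Tf2-9 the same 39.8 and 50.0, so that they are 2 measurements and not 8. Tf2-7 and Tf2-8 likewise shared 8.95 and 24.9 FPKM. Tf2-13 was listed at 0.0600 and 0.540 FPKM.

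Genes of unknown function were on the whole low, though with exceptions. The 366 genes annotated as uncharacterized or as specific to the genus had a median of 28.8 FPKM, 104 of them lay under 10 FPKM and 30 under 1. At the other extreme stood SPAC27E2.11c, annotated only as specific to Schizosaccharomyces, at 5118 and 4764 FPKM over a coding length of 246 bases. It was the highest of the list by a wide margin, since the next, SPAC922.04, had 830.3 and 897 FPKM. Among genes in no list, chosen after their values were seen, the cell surface genes knh3, at 4518 and 5168 FPKM, and knh2, at 1247 and 1276, and the 14-3-3 gene rad24, at 2602 and 2289, also exceeded 1000 FPKM.

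The bottom of the range held 69 genes with a mean under 1 FPKM. They had a median of 4 expected counts per library, and 60 genes were under 1 FPKM in both libraries, while 30 were under it in 1 library only. The cutoff does not fall at a gap, since the nearest values on either side were 0.990 and 1.01 FPKM (in genes such as meu13, of meiotic recombination, at 0.630 and 1.35). By annotation, 40 of the 69 (58.0%) had no product name or were uncharacterized, against 7.78% of all genes. The 40 include the 7 mitochondrial identifiers and SPMTR.04, a copy of mat1-Mc, which have no product in the annotation used. Their blank product does not mean that their function is unknown. By place, 7 were mitochondrial identifiers, 26 were among the outermost 25 genes of a chromosome end and 36 lay elsewhere. The ends held 150 genes, and 33 of the 4946 other chromosomal genes placed in the annotation were under 1 FPKM. Some end genes had the same length and counts as another, such as ftm2, ftm3 and ftm6, at 5 counts in each library. Another such pair was SPBC1348.09 and ayr2, at 1 and 3.5 counts. Such genes may share reads, so the 26 may hold fewer separate measurements. Named genes among the 69 include shu1, mei3, moa1 and the hexose transporter gene ght7 at 0.940 and 0.700 FPKM. They also include bqt2, of meiotic chromosome bouquet formation, with 4 and 6 counts. Another is ost5, for a subunit of the oligosaccharyltransferase, with 7 and 4 counts.

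Of the 5129 genes, 5112 were listed in both libraries and 17 in 1 only. A missing gene was taken as 0, and a count of 0 allows up to 3 counts, which covers counting error only. The largest difference of this kind was that of hry1, for a cation-binding protein, with 0 counts in library 1, which allows up to 0.225 FPKM, and 57 counts or 4.57 FPKM in library 2. SPAC186.03, for an L-asparaginase, had 13.9 expected counts in library 1 and 0 in library 2, and it belongs to a set of related subtelomeric copies that may share reads. SPBC3E7.17, uncharacterized, had 0 and 9 counts. Each of the other 14 had fewer than 8 counts where it was listed. A further 4 genes, SPAC1142.09, new14, SPBCPT2R1.02 and SPCC16C4.21, are listed for the Y41F libraries and in neither WT library.

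Chromosome ends differed from each other. Over the outermost 25 listed genes of each end, in the gene order of the ASM294v3 annotation, the median level at the left end of chromosome I was 3.34 FPKM in library 1 and 7.05 in library 2, and at its right end 1.90 and 4.57. At the left end of chromosome II it was 2.40 and 4.84 FPKM and at its right end 4.24 and 5.20. At the left end of chromosome III it was 43.6 and 47.7 FPKM and at its right end 50.2 and 67.4, and no gene of either end was under 1 FPKM. The ends of chromosomes I and II were not silent throughout, since the acid phosphatase gene pho1, at 525 and 953 FPKM, lies in the outermost 25 of chromosome II. Over all 6 ends the median was 9.39 FPKM in library 1 and 11.1 in library 2, against 56.3 and 60.3 for the other 4946 genes. By whole chromosome the medians were 55.7 FPKM for chromosome I, 62.7 for II and 49.8 for III.

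Level was weakly related to coding length, and genes in the longest bin were lowest. Spearman's rho of mean FPKM with length was -0.134 over 5129 genes, and -0.0847 without the ribosomal protein genes, as a description across genes that share libraries. In 10 bins of equal size the median rose from 58.6 FPKM in the shortest genes (75 to 390 bases) to 84.3 in the next bin. It then lay between 65.6 and 50.8 FPKM up to a length of 2661 bases and was 36.1 in the longest genes. The short bins were also the widest, with a range from the 5th to the 95th percentile of 1.02 to 1762 FPKM in the shortest, against 10.8 to 184 FPKM in the longest. Short genes thus held both extremes, with 24 of the genes under 1 FPKM and 40 of those at or over 1000 in the first bin, against 1 and 1 in the last.

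The longest coding sequences were all expressed at modest levels. The siderophore synthetase gene sib1, with 14775 bases, had 7.64 and 9.87 FPKM, and mdn1, for the ribosome assembly factor midasin, with 14154 bases, 16.9 and 16.2. The glycoprotein gene SPBPJ4664.02 had 12.5 and 9.62 FPKM and tra1, for a subunit of the SAGA complex, 13.8 and 15.1. Among the shortest, rpl4101 and rpl4102, which encode the same small ribosomal protein in 78 bases, had 6091 and 5785 FPKM and 4677 and 4485 FPKM. The oligosaccharyltransferase subunit gene ost4 had 198 and 208 FPKM. SPAC20G4.09 and SPBC1711.15c had 1 to 3 counts per library. For such genes the deposited level hangs on how length was corrected, since 36 bases were taken off every length before the division.

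**Figure D4:**
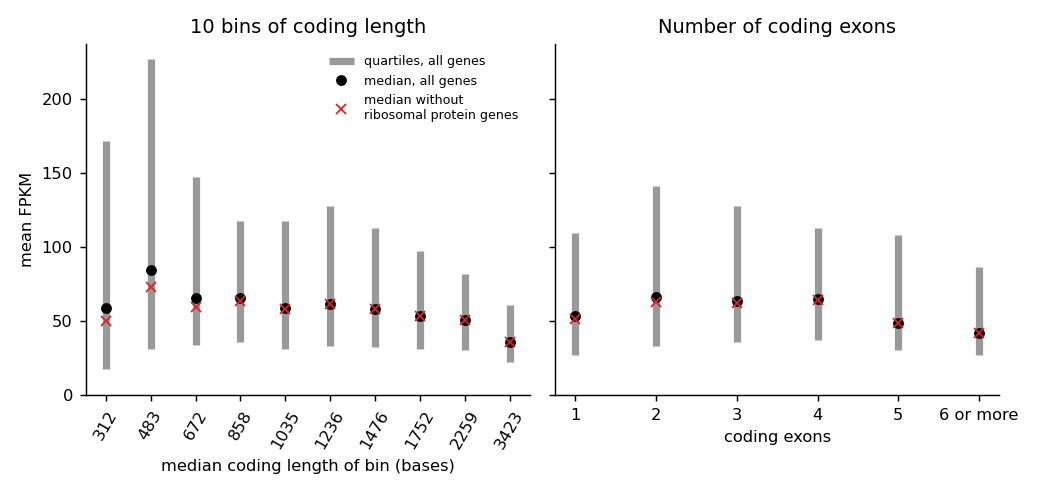
Median mean FPKM (vertical axis, linear from 0) over 10 bins of coding length (left, labelled by the bin's median length in bases) and by number of coding exons (right) in wild type. Dots are medians of all genes, grey bars run from the lower to the upper quartile, and crosses are medians without ribosomal protein genes. The longest bin has the lowest median of the lengths, 36.1 FPKM, and genes of 6 or more exons the lowest of the exon counts, 41.9 FPKM.

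Levels by number of coding exons differed by less than the spread among genes. The number of coding exons was taken for the 4967 genes whose coding length in the annotation equals the deposited one. The 2672 genes with 1 coding exon had a median of 53.1 FPKM, the 1024 with 2 had 66.2, the 634 with 3 had 63.6 and the 322 with 4 had 64.9. With 5 exons it was 49.0 FPKM and with 6 or more 41.9, over 158 and 157 genes. Without ribosomal protein genes the medians were 51.4 FPKM for 1 exon and 62.8 for 2.

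The libraries ranked genes alike. Pearson's r of log2(FPKM + 1) was 0.989 and Spearman's rho of FPKM 0.988 over 5129 genes, as a description. For the 360 genes under 10 FPKM rho was 0.826. Among the 4922 genes at a mean of 5 FPKM or more, the coefficient of variation over both libraries had a median of 5.92%, and it was under 10% in 3590 genes.

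Their differences exceeded counting error at every level above 1 FPKM. For genes from 30 to 100 FPKM the SD of the log2 ratio was 0.23, against 0.06 from counting alone, and for genes at 1000 FPKM or more it was 0.19 against 0.01. A robust SD, which outlying genes move less, was 0.15 and 0.09 in these bins. From 1 to 3 FPKM the robust SD was 0.74, near the 0.62 from counting. Under 1 FPKM the SD of the log2 ratio was 1.13 against 1.17, over 54 genes with counts in both libraries. There counting error is about as large as the whole difference, though its formula is approximate at their median count of 5.5. The share of genes at least 2-fold apart fell from 20.6% between 1 and 3 FPKM to 0.948% between 30 and 100 and 0% at 1000 or more.

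Direction was uneven. Of the 4922 genes, 3312 were higher in library 2 and 1607 lower, with a median log2 ratio of 0.07 (library 2 over library 1). The 184 genes at 1000 FPKM or more went the other way, with a median of -0.08, but 119 of them encode ribosomal proteins. Glycolysis genes, of which 8 reached 1000 FPKM, were higher in library 2 in 10 cases and lower in 3. The shift is therefore not shown to belong to abundance as such. Ribosomal protein genes were lower in library 2 in 133 of 142 cases, by a median log2 ratio of -0.08, and nucleolar ribosome biogenesis genes in 39 of 51, by -0.06. Respiratory chain genes were higher in 26 of 34, with a median of 0.09, both near the values over the 4922 genes. Protein kinases were higher in 75 of 94, with 0.15. As FPKM is a share, a high level in some genes lowers all others, and these small shifts cannot be read as absolute amounts.

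The 69 genes at least 2-fold higher in library 2 came from several lists, and 29 of them were in none. By number, the list of orphan and unknown function gave the most, with 15 of its 291 genes at 5 FPKM or more, beside 1.4% of all genes. The core stress response list gave 5 of 29, transporters 4 of 167, hexose transport and glucose repression 3 of 16, and nitrogen starvation 3 of 19. Ethanol fermentation gave 2 of 9, Tf2 retrotransposons 2 of 12, glycolysis 2 of 13, mating and pheromone response 2 of 24, chaperones 2 of 29, meiosis and sporulation 2 of 42, and sequence-specific transcription factors 2 of 52. None of the ribosomal protein genes was. Some genes count in 2 lists, such as hsp16 and hsp9 under stress and chaperones, and isp5 and put4 under nitrogen starvation and transporters. The 2 Tf2 copies, Tf2-7 and Tf2-8, had identical values and are 1 measurement, and the 12 also hold other copies of identical values. These counts describe 1 pair of libraries, and the lists were drawn up with earlier results of these data known. Of the 93 genes of the chromosome ends that reached 5 FPKM, 14 were among the 69.

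Individual genes in this set differed by wide margins. The maltase gene agl1 had 14.7 FPKM in library 1 and 214 in library 2, the metallothionein gene zym1 47.3 and 459, and fbp1 13.6 and 82.0. The uncharacterized prl65 had 13.9 and 130.3 FPKM, and lsd90 35.8 and 218. The small heat shock genes hsp16 and hsp9 had 60.1 and 281 FPKM and 284 and 940 FPKM, the catalase gene ctt1 109 and 239, and the invertase gene inv1 81.7 and 218. Another nutrient-regulated gene, isp5, for an amino acid transporter, had 11.95 and 53.6. The levels of these genes in log-phase wild type cannot be given as 1 number from these data.

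Low genes gave the highest ratios. SPAC869.09, for a protein of the Con-6 family, had 4 counts in library 1 and 136 in library 2, and SPAC186.08c, for an L-lactate dehydrogenase, 7 and 230. SPBPB21E7.10 and SPBPB21E7.11, both uncharacterized, had 2 and 53 counts and 23 and 151 counts. In the other direction only SPAC4H3.17, uncharacterized, passed 2-fold, at 10.4 and 4.52 FPKM. The next was cbm1, at 820.1 and 444 FPKM, followed by SPCC1235.18, at 9.15 and 4.99, and ecl1, at 110 and 60.5.

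**Figure D5:**
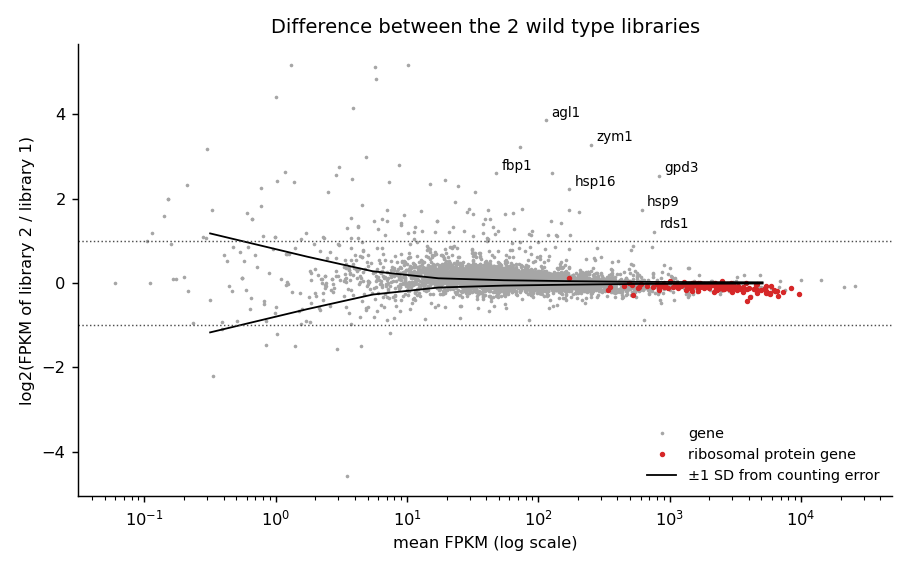
Log2 ratio of FPKM, library 2 over library 1 (vertical axis), against mean FPKM (horizontal axis, log scale) for the 5112 genes listed in both wild type libraries. Red points are ribosomal protein genes, black lines are ±1 SD expected from counting error alone, and dotted lines mark 2-fold. Points above the upper line, such as agl1 at 3.86 and zym1 at 3.28, outnumber those below the lower one.

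The libraries also set how well a list's level is known. Most list medians differed little between them, as in the 12 genes of RNA polymerase II, whose members were higher in library 2 in 6 cases and lower in 6. The median of the core stress response list was 137 FPKM in library 1 and 265 in library 2 (SD of these medians 90.1, n = 2). That of hexose transport and glucose repression was 20.96 and 40.0 FPKM (38.9 over the mean levels of both), which is ght4 in library 1 and ght6 in library 2. The members themselves had a median log2 ratio (library 2 over library 1) of 0.24 in the stress list and 0.28 in the hexose list. The list medians thus overstate the shift of a typical member. In the stress list the leading gene tpx1, for a thioredoxin peroxidase, hardly differed, at 3091 and 3386 FPKM, whereas rds1 had 460.2 and 1065.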

How the data were processed

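Per the file headers, the authors deposited 1 gene table per library that holds an expected count, an FPKM value and a length for each gene. Build ASM294v2 and the tools BWA, Bowtie and RSEM stand in the submitters' processing notes, and their versions, their roles and the strand setting of the counting are not given in the sources used here. The deposited FPKM values equal the expected count over a denominator and over the length less 36 bases, to within 0.0244% for genes above 20 FPKM. All lengths are multiples of 3, so they are coding lengths. Genes missing from 1 table were taken as 0. FPKM was used as deposited, and the expected counts served for counting error and for scaling.

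Of 5129 identifiers, 5096 matched the ASM294v3 annotation, which was used for names, products, gene order and coding exons. As its build is not that of the files, its coordinates served only for gene order and for coding exons and their lengths. No sequences were read, and the promoter motifs planned were not searched. Medians, shares and correlations were computed in Python 3.11.15 with pandas 2.3.3 and scipy 1.17.1, and scaling factors with edgeR 4.0.16 and DESeq2 1.42.0 in R 4.3.3, on counts rounded to whole numbers. The SD from counting error was the square root of the summed inverse counts, on the log2 scale. It was tested on simulated data that left out genes of the lowest counts, and so most genes under 1 FPKM.

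The genes and lists were chosen with earlier results of these data known. Named genes are the 25 highest, up to 3 highest and 2 lowest of each list (all members of lists of up to 12), the 10 highest and 10 lowest library ratios, genes at 0 in 1 library, the 5 longest and shortest, and the 5 nearest the median. Further members and pairs were named for their known role. Of 1098 list entries given by name, 33 matched no single gene and were not analysed here. After the identifiers were seen, the patterns for ribosomal, mitochondrial ribosomal and tRNA ligase genes were corrected, and 3 entries whose symbol names another gene were removed.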

Additional observations from a re-analysis of the deposited data

How the results depend on the processing

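The share of the top 10 and top 100 genes, the median level, the correlation of the libraries and the count of genes 2-fold apart kept their values within the limits set (1 SD of the libraries, 1.5 times for a count, 0.005 for a correlation) under every alternative run. For the shares and the median, leaving out 1 library shifts the value by less than 1 SD of both. Those runs could hardly fail and are no check. Over leaving out 1 library each, the top 10 share was 11.2% to 11.6%, the top 100 share 40.98% to 43.3%, the median 54.8 to 58.6 FPKM, the count of genes under 1 FPKM 67 to 83 and Spearman's rho of level with length -0.137 to -0.129. The count of genes under 1 FPKM was 42 with a threshold of 0.5 FPKM and 103 with 2 FPKM. The rank correlation of level with length was 0.427 on CPM, which are not divided by length, so that its sign turns. It was -0.180 with at least 10 counts in both libraries, -0.0847 without ribosomal protein genes and, chosen after seeing the data, -0.110 on TPM from the full length. The genes 2-fold apart numbered 70, and 68 with TMM or DESeq2 scaling, 99 from a mean of 1 FPKM and 56 from 10 FPKM. Of 51 list medians, TPM moved 11, none by over 1.5 times. The mean of logs moved 38, by up to 3.22 times for ethanol fermentation. It replaces the median by a mean over the members, so this compares 2 measures of a list and not 2 ways of processing. The filter at 10 counts raised the median of mitochondrially encoded genes 4.15 times. Without library 2, the medians of the hexose transport and the core stress response lists fell to 20.96 and 137 FPKM. Depth limits the levels of genes under 1 FPKM. The promoter motif alternative was not run. No paired analysis was possible because there is 1 group and no test.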

Other observations

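The denominator behind the deposited FPKM values was 23137198 in library 1 and 21647741 in library 2, which exceeds the listed expected counts by 3.79% and 3.71% of the denominator. What these further reads matched was not analysed here.

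Neighbouring genes hardly shared their level. Over 5047 pairs of adjacent genes, without genes of identical counts, Spearman's rho of mean FPKM was 0.0545, and 0.0236 over the 4915 pairs away from the chromosome ends. By orientation, read from the systematic names, it was 0.0711 for divergent pairs, 0.0522 for convergent ones and 0.0435 for pairs on the same strand. These are descriptions across genes that share libraries.

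Other genes above 1000 FPKM that are in no list, chosen after their values were seen, were btf3, for the beta subunit of the nascent polypeptide-associated complex, at 3021 and 3047 FPKM in libraries 1 and 2, tma19, for the translationally controlled tumor protein, at 2361 and 2185, met26, for homocysteine methyltransferase, at 2151 and 1912, and spi1, for the Ran GTPase, at 1615 and 1489. SPAC27E2.13, with 183 bases and no product in the annotation used, had 2050.2 and 2107 FPKM.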
